A study of Homo sapiens with 4 samples.

Results

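Peaks of APOBEC3B (A3B) around the autosomal centromeres were described in OMM2.3 and 92.1, established cell lines of uveal melanoma. A peak was taken as a member when its midpoint lay within 3 Mb of the centromere point of its chromosome, a single GRCh38 position for each of the 22 autosomes, so the rule used position and no measured value. It found 3303 members among 55061 autosomal peaks of OMM2.3 (5.999%, 95% Wilson interval 5.80 to 6.20) and 5083 among 134484 in 92.1 (3.78%, 3.68 to 3.88). The full lists held 56167 and 136678 peaks. The 22 windows together held 119.2 Mb of known sequence and 12.8 Mb of assembly gaps.

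The study immunoprecipitated formaldehyde-fixed, sonicated chromatin of both lines with an Abcam antibody against A3B, a cytidine deaminase that acts on single-stranded DNA, and with normal rabbit IgG (CST) as the control. The 4 samples were 1 A3B and 1 IgG library for each line, with no treatment named in the labels, and the peaks of each A3B library had been called against the IgG library of the same line with MACS2 at a p of 0.05. With 1 library per group there was no replicate check and no test between lines, so intervals below cover counting error only. Fragments were not counted with molecular identifiers, and neighbouring peaks or copies of a repeat are not independent of each other.

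Human centromeres are built on alpha satellite, a tandem repeat whose units are close copies of each other over long arrays. The histone variant CENP-A marks the active part of an array, and the protein CENP-B binds a short box within some of its units. Around the arrays lie other satellites, among them human satellites 2 and 3, which are made of degenerate copies of the pentamer ATTCC. Centromeric DNA also forms R-loops, hybrids of RNA with one DNA strand that leave the other strand single, and the study asked how A3B relates to R-loops. In GRCh38 the arrays are modelled sequences, so a position within them stands for a family of copies. Bowtie2 in its usual mode reports 1 of several equal alignments of a read. The mapping settings were not given in the sources used here, and how they bear on the values below was not tested.

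The sequences under the strongest members show which DNA was involved. Members were ranked by the −log10 p that MACS2 gave at the summit, the position where most fragments overlapped. The 4 strongest members of OMM2.3, 3 of the strongest of 92.1 and the strongest pair shared by the lines are printed with 100 bases on either side of the summit, 5′ to 3′ on the plus strand of GRCh38. Capitals mark the conserved core of the CENP-B box, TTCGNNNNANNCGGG on either strand, and, where a window holds at least 5 of them, the pentamer ATTCC or its complement GGAAT.
OMM2.3 strongest, chr7:58797753-58797953: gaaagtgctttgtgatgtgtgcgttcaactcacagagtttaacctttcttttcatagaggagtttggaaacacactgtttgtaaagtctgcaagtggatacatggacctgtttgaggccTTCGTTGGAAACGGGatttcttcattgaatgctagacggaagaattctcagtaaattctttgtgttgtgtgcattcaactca
OMM2.3 rank 2, chr7:59364597-59364797: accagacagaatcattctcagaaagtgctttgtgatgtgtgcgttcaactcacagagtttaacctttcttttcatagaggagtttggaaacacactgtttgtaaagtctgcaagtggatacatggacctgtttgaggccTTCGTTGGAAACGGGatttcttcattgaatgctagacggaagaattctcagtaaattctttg
OMM2.3 rank 3, chr5:49601541-49601741: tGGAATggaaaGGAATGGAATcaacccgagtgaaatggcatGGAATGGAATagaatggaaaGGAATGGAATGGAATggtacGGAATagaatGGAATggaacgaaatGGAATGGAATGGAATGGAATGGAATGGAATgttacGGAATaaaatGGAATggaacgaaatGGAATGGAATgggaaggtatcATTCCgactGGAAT
OMM2.3 rank 4, chr5:48860563-48860763: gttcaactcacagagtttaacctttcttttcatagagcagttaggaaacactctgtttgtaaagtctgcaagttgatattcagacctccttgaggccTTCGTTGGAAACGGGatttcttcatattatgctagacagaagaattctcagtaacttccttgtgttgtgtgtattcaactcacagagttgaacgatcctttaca
92.1 strongest, chr16:34588096-34588296: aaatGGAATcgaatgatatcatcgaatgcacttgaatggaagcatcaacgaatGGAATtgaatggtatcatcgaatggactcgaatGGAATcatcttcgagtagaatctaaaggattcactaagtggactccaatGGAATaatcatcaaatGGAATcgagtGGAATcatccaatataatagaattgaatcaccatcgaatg
92.1 rank 3, chr3:93470480-93470680: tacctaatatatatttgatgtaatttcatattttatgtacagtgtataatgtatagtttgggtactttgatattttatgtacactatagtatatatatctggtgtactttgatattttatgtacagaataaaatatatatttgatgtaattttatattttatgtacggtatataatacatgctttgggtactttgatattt
92.1 rank 4, chr4:49709353-49709553: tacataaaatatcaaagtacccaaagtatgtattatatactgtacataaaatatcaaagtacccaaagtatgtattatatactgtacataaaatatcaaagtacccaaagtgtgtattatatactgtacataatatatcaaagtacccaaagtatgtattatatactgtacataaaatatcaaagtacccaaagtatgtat
Strongest shared pair, at the OMM2.3 summit, chr17:26603811-26604011: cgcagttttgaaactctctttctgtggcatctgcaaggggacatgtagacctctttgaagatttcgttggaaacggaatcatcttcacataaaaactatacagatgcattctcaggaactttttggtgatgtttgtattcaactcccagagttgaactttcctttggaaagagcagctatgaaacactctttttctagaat

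The first and second OMM2.3 sequences come from alpha satellite-like repeats of chromosome 7. They lie over 0.5 Mb apart in the assembly, and every base of the first printed window was found within 300 bases of the second summit (100% identity). Both hold a CENP-B core. The rank 4 member, on chromosome 5, carries the same box, and the rank 1 window matched its surroundings at 90.5% identity over its full length. The rank 3 member, also on chromosome 5, is a run of 22 pentamers of the satellite 2/3 kind. None of the 3 sequences of 92.1 holds a CENP-B core. The chromosome 16 sequence has 6 pentamers in a degenerate array. The chromosome 3 and chromosome 4 sequences are AT-rich and alike, with GC contents of 21.4% and 24.4%, and the chromosome 4 window matched the region of the chromosome 3 summit at 86.1% identity over its full length, with both strands searched. The shared pair on chromosome 17 lies in alpha satellite-like sequence without an exact copy of the core.

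The values behind these members combine many fragments with a high IgG signal. Fold enrichment is the ratio of the fragments at the summit to the local background that MACS2 estimated from IgG, with 1 added to both. The fragments and the background were worked back from the deposited fold and p, with the A3B fragments as whole numbers and the background on the scale of the smaller library of the pair. With the smallest whole numbers that fit, the A3B fragments were multiplied by 0.867 in OMM2.3 before the ratio was taken, and by 1 in 92.1. The strongest OMM2.3 member (chr7:58797739-58797969) had 170 A3B fragments over a background of 59.0, a fold enrichment of 2.47 and a −log10 p of 21.7. The rank 2 member had 133 fragments over 43.0 and a fold enrichment of 2.64. The pentamer member on chromosome 5 (chr5:49601473-49601745) had 169 over 63.4 and a fold enrichment of 2.29. These were large counts with modest ratios. The rank 4 member (chr5:48860563-48860813) was higher in ratio, with 58 fragments over 12 and a fold enrichment of 3.95.

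In 92.1 the strongest member (chr16:34588074-34588298) had 329 fragments over a background of 168, a fold enrichment of 1.95 and a −log10 p of 27.6. The AT-rich member of chromosome 3 (chr3:93470455-93470755) had 401 over 236, a ratio of 1.69, with a −log10 p of 22.1. Its counterpart on chromosome 4 (chr4:49709327-49709575) had 212 over 103 and a fold enrichment of 2.05. Thus the ranking by p and the ranking by ratio picked different members. By fold enrichment the highest OMM2.3 member, chosen after its values were seen, lay on chromosome 19 (chr19:26943985-26944258), with 19 fragments over 1.71 and a ratio of 6.45. The highest of 92.1, chosen likewise, lay on chromosome 5 (chr5:48584383-48584686), with 13 over 1.26 and a ratio of 6.18.

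All 20 of the 10 strongest members of each line lay outside annotated genes. In OMM2.3 the distance to the nearest GENCODE gene ran from 737424 to 3177084 bp, and in 92.1 from 119798 to 3603063 bp. Of these 20 members, 1 met a peak of the other line, that of chromosome 17. The 10 strongest of OMM2.3 had GC contents of 36.3% to 42.3%. The 10 of 92.1 ran from 21.4% to 39.3%, since 5 of them were AT-rich, 1 on chromosome 3 and 4 on chromosome 4. The q-value is the p-value of MACS2 corrected over the genome, and a q of at most 0.05 was listed for 0.449% of all OMM2.3 peaks and 0.166% of all 92.1 peaks. OMM2.3 had 0 members with a GC content under 30% and such a q, and 92.1 had 6, the other one on chromosome 9.

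The members of ranks 1 and 2 in 92.1 lay in a short stretch of chromosome 16, about 2.2 Mb from the centromere point. Within 25 kb of the strongest one, 92.1 had 5 members and OMM2.3 had 4. All 5 of 92.1 and 3 of 4 in OMM2.3 had a q of at most 0.05. The IgG background was 125 to 250 fragments in 92.1 and 59.0 to 124 in OMM2.3, against medians of 1.17 and 1.87 over all members. Fold enrichment over that background was 1.37 to 2.07 and 1.55 to 1.62. Both lines therefore had members here, and 2 of the 5 in 92.1 met one of OMM2.3, at chr16:34576368-34576594 and chr16:34593256-34593610 by the OMM2.3 coordinates. The other 3 of 92.1, ranks 1 and 2 among them, and the other 2 of OMM2.3 had no partner.

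**Figure D1:**
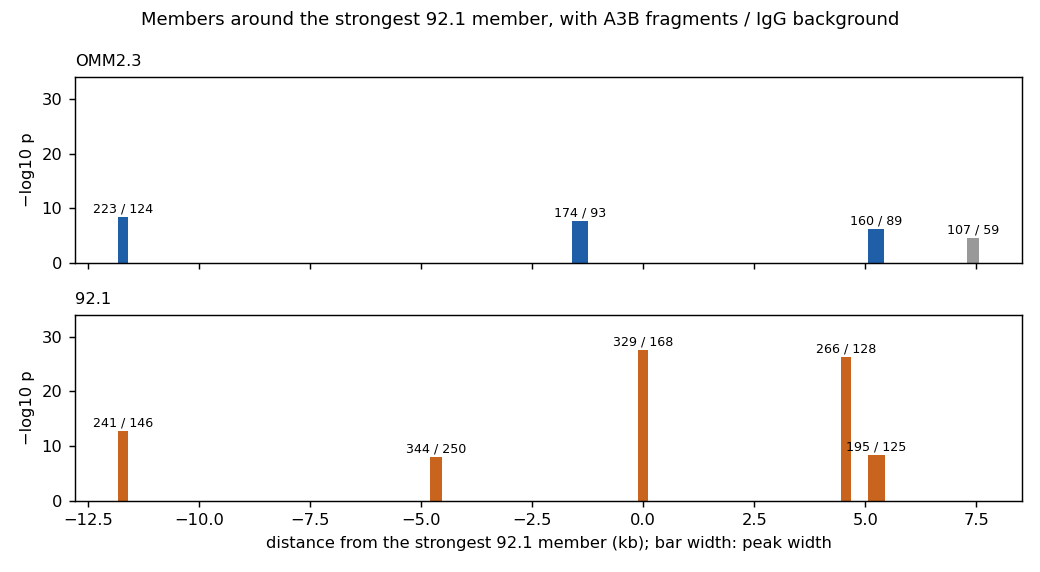
Members of OMM2.3 (top) and 92.1 (bottom) around the strongest 92.1 member, by distance from it in kb (x) and −log10 p (y, shared scale); each bar is as wide as its peak, grey marks a q above 0.05, and the label gives A3B fragments / IgG background. The 92.1 member at 0 has 329 fragments over 168 and no OMM2.3 member at its place, while the outermost bars on the left lie at the same place in both lines.

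The next question was whether peaks were denser around centromeres than along the rest of the same chromosome. The density ratio is the number of members divided by the number expected from the peaks per Mb on the rest of each chromosome, summed over chromosomes, with gaps left out. OMM2.3 had 27.7 members per Mb, and 3303 members against 2507.6 expected gave a ratio of 1.32 (exact Poisson 95% interval 1.27 to 1.36). In 92.1 there were 42.6 members per Mb, and 5083 against 6002.9 gave 0.847 (0.824 to 0.870). The lines thus lay on opposite sides of 1, a difference that was not tested. The direction in 92.1 turned at stricter thresholds. Counting peaks past a q of 0.05 alone, the ratio was 95.6 (81.6 to 111) in OMM2.3 and 14.3 (11.3 to 17.8) in 92.1, and at a p of at most 1e-05 it was 50.4 and 5.26. The intervals of the density ratio cover the count of members and take the expected number as known. At a q of 0.05 that number rests on 28 peaks elsewhere in OMM2.3 and 121 in 92.1, so those intervals are too narrow.

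Chromosomes differed widely. In OMM2.3 the ratio was above 1 on 18 of 22 chromosomes, and its interval lay above 1 on 14 and below on 1. The highest ratios were 2.67 on chromosome 9, 2.49 on chromosome 21 and 2.44 on chromosome 6. In 92.1 the ratio was above 1 on 4 chromosomes, with the interval above 1 on 3 and below on 11. Its highest values were 1.55 on chromosome 15, 1.22 on chromosome 6 and 1.21 on chromosome 9. On those 3 chromosomes the interval lay above 1 in both lines. The OMM2.3 ratio was larger than that of 92.1 on 21 of 22 chromosomes.

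Chromosome 17 had the lowest ratio in both lines, 0.391 (0.295 to 0.508) in OMM2.3 with 56 members and 0.362 (0.297 to 0.437) in 92.1 with 108. It was the only chromosome whose interval lay below 1 in both. Of regular positions placed every 10 kb in its window, 72.8% were repeated and 34.1% were alpha satellite-like by the definitions below, where the 22 windows together had 69.2% and 29.7%. The next lowest of OMM2.3 were chromosomes 1 (0.948) and 22 (0.951), whose intervals included 1, and those of 92.1 were chromosomes 1 (0.614) and 7 (0.693).

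**Figure D2:**
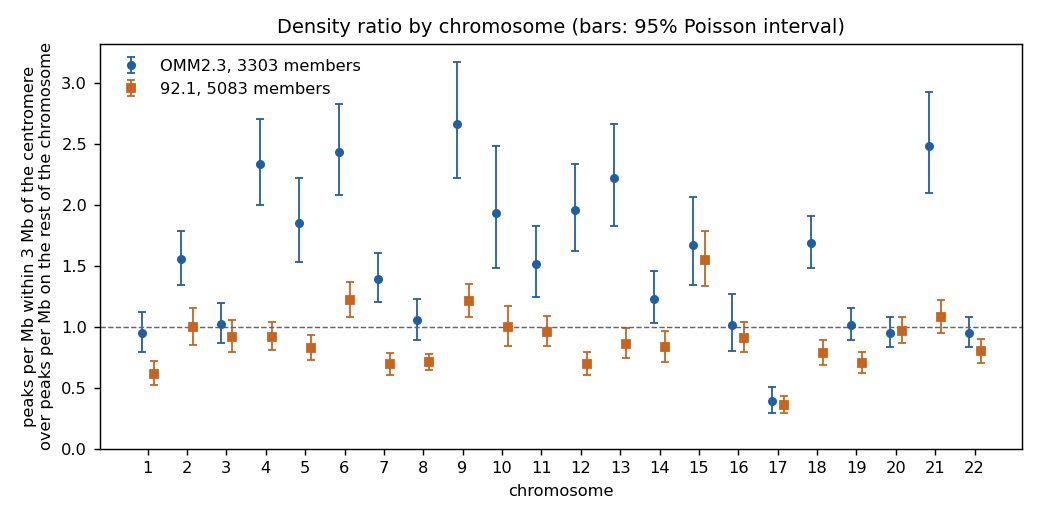
Density ratio (y, linear) on each of the 22 autosomes (x) for OMM2.3 (circles) and 92.1 (squares), with exact Poisson 95% intervals as bars and a dashed line at 1. Most OMM2.3 points lie above the line, up to 2.67 on chromosome 9, most 92.1 points lie on or under it, and both lines are lowest on chromosome 17.

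The OMM2.3 ratios separated by how sparse the chromosome was elsewhere, a split chosen after the values were seen. On the 10 chromosomes with fewer than 15 peaks per Mb outside the window (4, 5, 6, 9, 10, 11, 12, 13, 15 and 21), the ratio ran from 1.52 to 2.67. On the other 12 it ran from 0.391 to 1.69. The rest of the chromosome spanned 5.69 to 13 peaks per Mb in the first set and 17.8 to 46.7 in the second, whereas the windows spanned 11 to 31.1 and 9.50 to 44.4. The ratio has the density elsewhere as its denominator, so this is a description and not a separate result. On the same 10 chromosomes 92.1 had ratios of 0.697 to 1.55, with 26.0 to 52.4 peaks per Mb outside the windows. The share of members with a q of at most 0.05 in OMM2.3 was 5.63% on the sparse chromosomes and 4.62% on the others.

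Peak strength set the members apart more than their number did. Against the 0.449% and 0.166% of the whole lists, a q of at most 0.05 was found at 165 of 3303 members in OMM2.3 (5.00%, 4.30 to 5.79) and 79 of 5083 in 92.1 (1.55%, 1.25 to 1.93). On the rest of the autosomes they were 28 of 51758 (0.0541%, 0.0374 to 0.0782) and 121 of 129401 (0.0935%, 0.0783 to 0.112). Members therefore made up 85.5% of the 193 autosomal peaks past that threshold in OMM2.3 and 39.5% of the 200 in 92.1. Of all listed peaks past it, sex chromosomes and other sequences included, they were 65.5% and 34.8%. The share was low at the other edge of the chromosomes, since within 3 Mb of autosome ends it was 0.178% of 2816 peaks in OMM2.3 and 0.160% of 5634 in 92.1. Yet the highest −log10 p and fold enrichment of all autosomal 92.1 peaks lay near those ends, at 68.4 and 10.8, against 27.6 and 6.18 at members. In OMM2.3 members held both autosomal maxima, at 21.7 and 6.45.

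Most members were weak all the same. A q of exactly 1 was listed for 87.4% of members in OMM2.3 and for 86.9% in 92.1. That was less often than over the whole lists, at 98.4% and 94.1%, or the rest of the autosomes, at 99.3% and 94.4%. Median fold enrichment was 2.64 against 2.60 on the rest of the autosomes in OMM2.3, and 2.65 against 2.66 in 92.1. The median ratio over IgG of the listed peaks was thus nearly the same inside and outside the windows. Both sides hold only peaks that passed the p threshold of the caller, so these medians cannot show whether enrichment was equal. The fragments behind a peak differed, with medians of 8 against 6 in OMM2.3 and 5 against 4 in 92.1.

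Members with a q of at most 0.05 were spread over 20 chromosomes in OMM2.3 and 19 in 92.1, with 17 in common. Chromosome 19 held 27 of the 165 in OMM2.3, chromosome 5 held 21 and chromosome 13 held 15, while chromosomes 11 and 15 held 0. In 92.1 chromosome 1 held 13 of 79, chromosome 19 held 11 and chromosome 5 held 9, while chromosomes 6, 7 and 22 held 0. Members past the threshold outnumbered such peaks on the rest of the chromosome on 19 chromosomes in OMM2.3 and on 6 in 92.1. When peaks within 25 kb of the next were joined, the 165 lay on 137 separate stretches and the 79 on 69, and the largest stretch had 5 in both lines.

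The strong members gathered toward the middle of the windows. In OMM2.3 the share with a q of at most 0.05 was 9.03% (7.57 to 10.7) within 1 Mb of the point, 3.97% (2.95 to 5.32) at 1 to 2 Mb and 1.01% (0.547 to 1.84) at 2 to 3 Mb. In 92.1 it was 3.01% (2.27 to 3.99), 0.930% (0.573 to 1.51) and 0.887% (0.547 to 1.44). The outer zones of 92.1 did not differ beyond their intervals. Density behaved differently. The OMM2.3 ratio was 1.40, 1.25 and 1.29 in the 3 zones, while the 92.1 ratio was 0.734, 0.849 and 0.974. So the density of 92.1 was lowest in the zone where its share of strong members was highest. Near the limit of the window, OMM2.3 had 25.7 peaks per Mb at 2.5 to 3 Mb and 24.4 at 3 to 3.5 Mb, with 4 and 0 past q, and 92.1 had 45.4 and 49.1, with 3 and 2 past q. By arm, the ratio was 1.27 on the short-arm side and 1.36 on the long-arm side in OMM2.3, and 0.830 and 0.863 in 92.1.

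**Figure D3:**
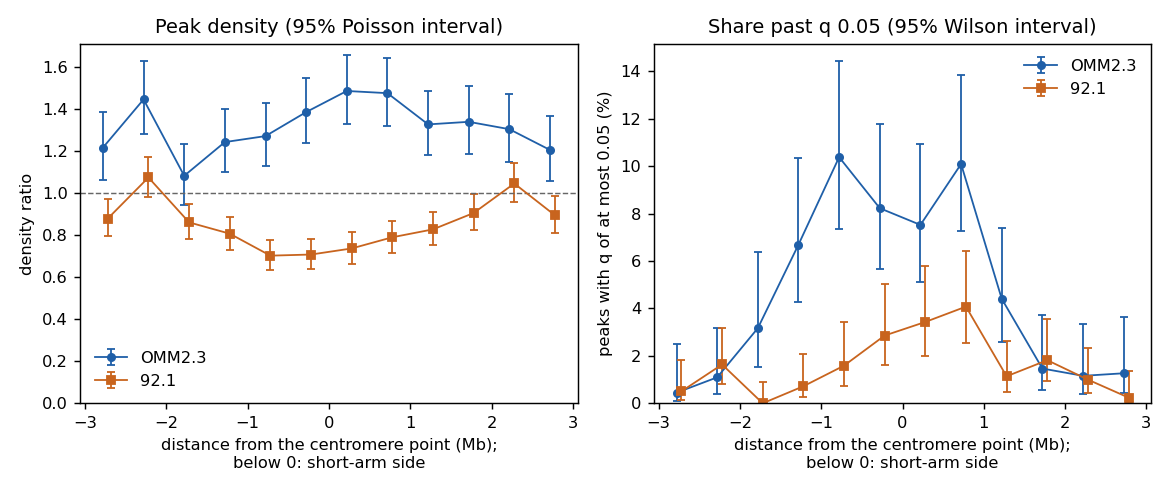
Density ratio (left, exact Poisson 95% intervals) and share of members with a q of at most 0.05 in percent (right, Wilson 95% intervals) in bins of 0.5 Mb by distance from the centromere point, short-arm side below 0, for OMM2.3 (circles) and 92.1 (squares). The share of OMM2.3 peaks at 10.4% and 10.1% in the bins 0.5 to 1 Mb on either side, and the 92.1 density ratio is lowest, at 0.702 to 0.737, in the 3 bins from 1 Mb before to 0.5 Mb after the point.

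IgG signal was higher in the windows as well, and it moved with the result. The median IgG background was 1.87 fragments at members and 1.12 on the rest of the autosomes in OMM2.3, and 1.17 against 0.903 in 92.1. It exceeded 10 fragments at 116 OMM2.3 members (3.51%, against 0.0889% of other autosomal peaks) and at 32 members of 92.1 (0.630%, against 0.0317%). The window median was above that of the rest on 20 of 22 chromosomes in OMM2.3 and 21 in 92.1. Members with a q of at most 0.05 had a median background of 4 fragments and a median of 23 A3B fragments in OMM2.3, and of 2.71 and 16 in 92.1.

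The share past q rose with that background. In OMM2.3 it was 1.95% of the 1997 members with 1 to 2 background fragments, 5.76% at 2 to 5, 11.2% at 5 to 10, 36% of 100 members at 10 to 50, and 11 of 16 above 50. In 92.1 it was 0.727% of 2339 members at 1 to 2 fragments, 3.50% at 2 to 5 and 12.9% at 5 to 10. It was 4 of 16 at 10 to 50, and 12 of 16 above 50. Fold enrichment went the other way, with medians of 2.86 at 1 to 2 fragments and 1.59 above 50 in OMM2.3, and 2.55 and 1.64 in 92.1. At equal background members differed from other autosomal peaks in some ranges and not in others. At 1 to 2 fragments the rest of the autosomes had 0.0239% past q in OMM2.3 and 0.0249% in 92.1, below the intervals of the members (1.43 to 2.66 and 0.454 to 1.16). At 2 to 5 fragments it had 0.211% and 0.104%, again below the members' intervals of 4.47 to 7.39 and 2.40 to 5.08. Under 1 fragment the 92.1 rest had 0.105%, against 0.579% of members (0.324 to 1.03). At 5 to 10 fragments the rest had 12.8% of 47 peaks and 11.1% of 27, within the members' intervals of 7.53 to 16.4 and 6.91 to 22.7. At 10 to 50 fragments the OMM2.3 rest had 7.41% of 27 peaks (2.06 to 23.4), below the members' interval of 27.3 to 45.8. The 92.1 rest had 14.3% of 14 there, within the members' interval of 10.2 to 49.5. Above 50 the OMM2.3 rest had 26.3% of 19, and its interval of 11.8 to 48.8 overlapped the members' 44.4 to 85.8. Above 50 the 92.1 rest had 70.4% of 27, against 75% of members (50.5 to 89.8). What part the IgG background takes in the share past q was not tested.

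**Figure D4:**
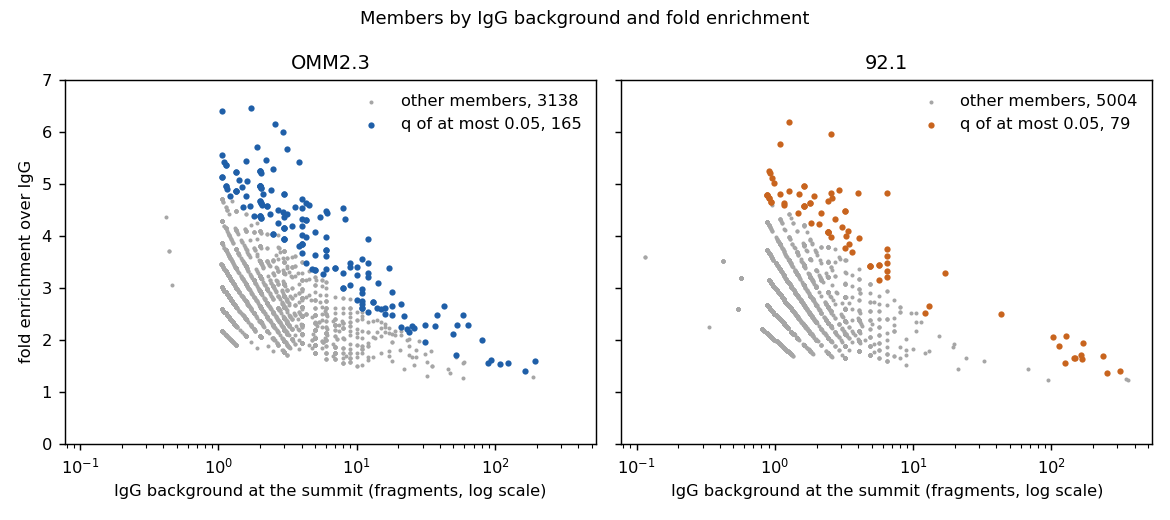
Fold enrichment over IgG (y, linear) against the IgG background at the summit in fragments (x, log scale) for the members of OMM2.3 (left) and 92.1 (right), with members of a q of at most 0.05 in colour (165 and 79) and the others in grey. Coloured points run from ratios above 4 at a background near 1 fragment to ratios under 2 at backgrounds above 50.

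Sequence under the summits was then classified. Repeated summits were those where 50% or more of the 32-base words within 100 bases on either side occur at several places in the genome. Of members, 77.0% (75.5 to 78.4) were repeated in OMM2.3 and 66.7% (65.3 to 67.9) in 92.1, against 19.1% and 12.6% of other autosomal peaks. Positions every 10 kb gave 69.2% in the windows and 12.6% elsewhere. OMM2.3 members were thus more often repeated than the windows themselves, and members of 92.1 less often. With a q of at most 0.05 the shares were 95.8% (91.5 to 97.9) and 92.4% (84.4 to 96.5), and the median 32-base word then occurred 1208 and 1198 times. In OMM2.3, 2 of 678 members in the class of sequence that was not repeated had such a q, and in 92.1 it was 4 of 1553, among them the AT-rich member of chromosome 3, where 10.6% of the 32-base words were repeated, and 1 of those on chromosome 4, with 31.2%.

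Alpha satellite-like members were those where the 1000 bases around the summit matched themselves at 50% or more when shifted by 170 bases or up to 2 more, about 1 unit of the repeat. They were 1044 of the OMM2.3 members (31.6%, 30.04 to 33.2) and 1299 of those in 92.1 (25.6%, 24.4 to 26.8), and 29.7% of window positions. With the length of such sequence in each window taken from those positions, and the density of all peaks on the rest of the chromosome as the expectation, the ratio was 1.31 (1.23 to 1.39) in OMM2.3 and 0.723 (0.684 to 0.763) in 92.1. Of these, 81 (7.76%) and 24 (1.85%) had a q of at most 0.05. Their median 32-base word occurred 1091 times in the genome in OMM2.3 and 851.5 times in 92.1.

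Satellite 2/3-like members held at least 10 of the pentamers within 100 bases on either side. OMM2.3 had 92 on 11 chromosomes (2.79%, 2.28 to 3.40), against 0.789% of window positions (0.645 to 0.964), and a density ratio of 5.62 (4.53 to 6.90), with the length of this sequence known from 94 positions only. The 92.1 line had 49 on 9 chromosomes (0.964%, 0.730 to 1.27) and a ratio of 1.16 (0.855 to 1.53). In OMM2.3, 27 lay on chromosome 4, where 92.1 had 1, and 16 on chromosome 10, where 92.1 had 12. On chromosome 7 the order was the other way, with 5 and 12. IgG was high at these members in OMM2.3, with a median background of 5.80 fragments, and lower in 92.1, with 1.62. Past q were 12 (13.04%) and 3 (6.12%), whose intervals of 7.62 to 21.4 and 2.10 to 16.5 overlapped.

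Members in other repeated sequence were 1489 (45.1%) and 2182 (42.9%), close to the 41.9% of window positions, with 70 and 48 past q. This class was not free of centromeric sequence. The CENP-B core stood in 25.4% of these members in OMM2.3 and 22.2% in 92.1, and in 38 of the 70 and 18 of the 48 past q. The rank 4 member of OMM2.3 belongs to it. The alpha satellite-like shares can therefore leave out some alpha satellite. Members in sequence that was not repeated were 678 (20.5%) and 1553 (30.6%), against 27.5% of window positions. Their density ratio was 1.01 (0.934 to 1.09) in OMM2.3 and 0.898 (0.854 to 0.944) in 92.1. Against the density of all peaks elsewhere, whatever their class, the OMM2.3 ratio was above 1 in each class of repeat and at 1 outside repeats. The 92.1 ratio was below 1 in alpha satellite-like, other repeated and unrepeated sequence. Elsewhere on the autosomes, however, other repeated sequence was 19.1% of OMM2.3 peaks and 12.6% of positions, so this expectation does not compare like with like. With unrepeated peaks elsewhere as the expectation, the OMM2.3 ratio in unrepeated sequence of any satellite class was 1.08 (1.01 to 1.16).

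**Figure D5:**
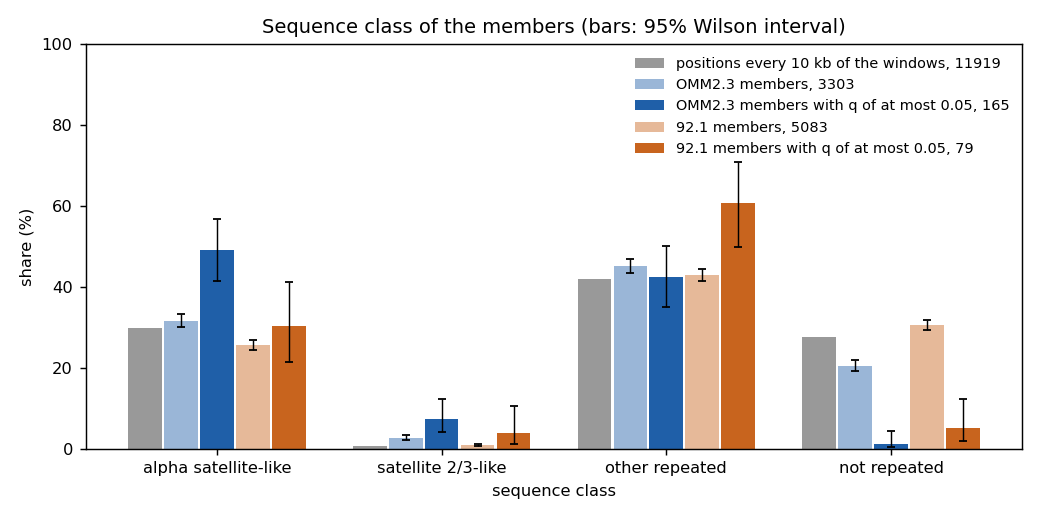
Share in percent (y, from 0) of 4 sequence classes (x) among regular positions of the windows (grey, every 10 kb), all members (pale) and members with a q of at most 0.05 (dark) of OMM2.3 (blue) and 92.1 (orange), with Wilson 95% intervals for members. Unrepeated sequence falls from 20.5% of OMM2.3 members to 1.21% of those past q and from 30.6% to 5.06% in 92.1, while alpha satellite-like sequence is 49.1% of OMM2.3 and 30.4% of 92.1 members past q.

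The CENP-B core printed in capitals above was counted in the same windows around the summit, on both strands. Its fixed letters do not hold the pentamer. It stood in 20.6% of window positions (19.9 to 21.3) and in 0.00607% of positions elsewhere on the autosomes. Of all members, 23.6% (22.1 to 25.03) held it in OMM2.3 and 18.2% (17.1 to 19.3) in 92.1. Among members with a q of at most 0.05 the share was 43.6% (36.3 to 51.3) in OMM2.3 and 30.4% (21.3 to 41.2) in 92.1, against 22.5% (21.1 to 24.0) and 17.99% (16.9 to 19.1) of the other members. Within alpha satellite-like members past q it was 42.0% (34 of 81) in OMM2.3 and 25% (6 of 24) in 92.1. All members of that class had 38.3% (35.4 to 41.3) and 33.6% (31.05 to 36.2), and its window positions 30.9%. Within that class the share past q was thus slightly higher in OMM2.3 and lower in 92.1. It rests there on 81 and 24 members without an interval, so no direction is drawn. In other repeated sequence it was higher in both lines, at 54.3% and 37.5% past q against 25.4% and 22.2% of all such members. A match describes the letters of the assembly and does not show that CENP-B was bound.

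GC content at member summits was lower than at other peaks. It averaged 41.8% (SE 0.121 over peaks) against 46.5% (SE 0.0397) in OMM2.3 and 40.0% (SE 0.0972) against 42.4% (SE 0.0264) in 92.1. Window positions averaged 39.4% and positions elsewhere 41.0%. Members were thus above the sequence of their own windows in both lines, by less in 92.1. Summits with under 30% GC were 41 members of OMM2.3 (1.24%) and 254 of 92.1 (5.00%), and 5.95% of window positions.

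Sharing between the lines was rare, and within 3 Mb it was more frequent than elsewhere. By an overlap of at least 1 bp, 154 members of each line met a peak of the other, which was 4.66% (3.99 to 5.44) of OMM2.3 and 3.03% (2.59 to 3.54) of 92.1 members. On the rest of the autosomes the shares were 3.56% (3.40 to 3.72) and 1.42% (1.36 to 1.49). The 154 pairs lay on all 22 chromosomes, and 131 were in repeated sequence. Both peaks had a q of at most 0.05 in 3 pairs, and at least 1 did in 12. On the rest of the autosomes 1846 pairs included 2 with both past q. With windows of 5 Mb the OMM2.3 share was 4.05% (3.54 to 4.64) against 3.58% on the rest, which lay within the interval. In sequence that was not repeated the direction did not hold, with 3.02% of members against 3.51% elsewhere in OMM2.3 and 1.30% against 1.31% in 92.1, within the intervals of both lines (2.02 to 4.49 and 0.859 to 1.96).

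The 3 pairs with both peaks past q were that of chromosome 17, whose sequence is printed above, and those on the chromosome 16 stretch. At the chromosome 17 pair (chr17:26603778-26604012 in OMM2.3, chr17:26603785-26604019 in 92.1) OMM2.3 had 363 fragments over a background of 196 and 92.1 had 273 over 167. The fold enrichments were 1.60 and 1.63 and the −log10 p 14.5 and 13.7. The first chromosome 16 pair had 223 over 124 and 241 over 146, and the second had 160 over 89.0 and 195 over 125. At all 3 the IgG background was high in both lines and the ratios were between 1.55 and 1.65. The remaining 7 of the 10 strongest pairs had a background of 1.06 to 15 fragments, and all 7 lay in sequence whose 32-base words were all repeated.

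Genes are sparse in the windows. Members overlapped a gene body in 20.3% of cases in OMM2.3 (18.98 to 21.7) and 27.9% in 92.1 (26.7 to 29.1), against 65.0% and 65.4% of other autosomal peaks. Of positions every 10 kb, 21.1% overlapped one in the windows and 63.4% elsewhere. Protein-coding genes were overlapped by 9.57% of OMM2.3 and 14.7% of 92.1 members. The windows held 253 protein-coding genes, of which 109 (43.1%, 37.1 to 49.2) had a member in OMM2.3, 154 (60.9%, 54.7 to 66.7) in 92.1 and 89 in both, while 79 had none. On the rest of the autosomes 46.7% and 67.6% of 18858 protein-coding genes had a peak, and the median gene length was 27.9 kb there and 28.4 kb in the windows.

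Only 1 of the 253 genes overlapped a member with a q of at most 0.05. It was POTEB3 (ENSG00000278522.5, chromosome 15, 21405401 to 21440499), of the primate-specific POTE family, with 8 members in 92.1, 1 of them past q with a −log10 p of 6.98. In OMM2.3 it had 1 member, with a −log10 p of 3.94. Near-identical copies of POTE genes make the placement of reads between them uncertain.

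The genes with the most members were long. SPIDR, which encodes a scaffold protein of homologous recombination (chromosome 8, 47260878 to 47736306), had 21 in OMM2.3 and 44 in 92.1 over 475 kb. PRIM2, the large subunit of DNA primase (chromosome 6, 57314805 to 57646850), had 13 and 36 over 332 kb. MICAL3, an actin-regulating monooxygenase, had 10 and 18, and CECR2, a bromodomain protein of chromatin remodelling, had 8 and 18, both on chromosome 22. HOOK3, an adaptor for dynein, had 4 and 20. FRYL had 2 and 22, GABRB1, a subunit of the GABA receptor, 6 and 16, and KHDRBS2, an RNA-binding protein, 9 and 13. BCL2L13, a BCL2 relative of mitochondria, had 8 and 13 and CNTNAP3B, of the contactin-associated family, 3 and 18. Every member in these 10 genes had a q above 0.05, and the highest −log10 p was 5.68 in OMM2.3, at SPIDR, and 5.40 in 92.1, at FRYL. Per 100 kb of gene, the members ran from 0.707 at FRYL to 7.84 at BCL2L13 in OMM2.3 and from 2.14 at KHDRBS2 to 14.97 at HOOK3 in 92.1. HOOK3 and SPIDR lie on chromosome 8, where 92.1 had its densest window, with 75.4 members per Mb, and 106 peaks per Mb outside it.

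Gene families that are frequent near centromeres were counted by symbol. Of 19 zinc finger genes with the prefix ZNF, 12 had a member in OMM2.3, 14 in 92.1 and 10 in both, at 3.10 and 4.04 members per 100 kb of gene, where all 253 genes had 2.21 and 5.11. Of 8 POTE genes 3 and 6 had one, at 3.29 and 8.22 per 100 kb. ANKRD had 3 and 4 of 4 genes, TPTE 2 and 2 of 2, NBPF 2 and 1 of 2, and GOLGA 1 and 0 of 1. The prefix FRG1 had 0 protein-coding genes in the windows.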

How the data were processed

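Per the labels and the study's methods, the authors aligned paired-end reads to GRCh38 with Bowtie2 2.2.5, took out duplicates (Sambamba) and ran MACS2 2.2.7.1 at a p of 0.05, with IgG as the control. The deposited values were the integer peak score, fold enrichment (a ratio), −log10 p-value and −log10 q-value, which the authors' caller gives at the summit. Mapping quality filters and excluded regions were not given in the sources used here.

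The members, gene lists and regions to name were chosen with earlier results of these data known. The regions were the 10 members of each line with the highest −log10 p and the 10 overlapping pairs whose lower −log10 p was highest. The genes were protein-coding genes in the windows that overlap a member with a q of at most 0.05, and the 10 with the most members. Fragments were taken as the smallest whole number that gave the deposited −log10 p within 0.002. This worked for 100% of autosomal peaks at a scaling of the A3B library of 0.867 in OMM2.3 and 1 in 92.1. Multiples of these numbers at a lower scaling would give the same values in both lines. With the smallest numbers, the depth was a median of 8 and 5 fragments a member. Classes were assigned in the order satellite 2/3-like, alpha satellite-like, other repeated. The 32-base words were counted on both strands of the reference without alternate haplotypes, and genes came from GENCODE 44. The steps were tested on simulated data with planted ratios, repeats and fragment numbers. Alternatives covered the window, threshold, comparison, overlap, repeats and class limits. Computation used Python 3.11.15, numpy 2.4.6, scipy 1.17.1, pandas 2.3.3 and numba 0.67.0.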

Additional observations from a re-analysis of the deposited data

Results flagged for a closer look

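The density ratio lay on opposite sides of 1 in the lines. OMM2.3 had 1.32, with a Poisson interval of 1.27 to 1.36, and 92.1 had 0.847, with 0.824 to 0.870. Each line had 1 A3B library, and the difference was not tested. The OMM2.3 ratio was larger on 21 of 22 chromosomes, by a factor of 0.984 to 2.80 with a median of 1.57. Among peaks with a q of at most 0.05 both ratios were above 1, at 95.6 and 14.3.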

How the results depend on the processing

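Of 74 alternatives to 18 results, 18 gave a value within the interval of the main one, 52 moved it beyond that and 4 changed its direction. Unless a cause is given, the cause was not tested. The alternative with a self-identity of 0.4 was chosen after seeing the data.

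The threshold changed most. The density ratio rose to 95.6 in OMM2.3 and turned to 14.3 in 92.1 at a q of at most 0.05, and to 50.4 and 5.26 at a p of at most 1e-05. At that p, 9.32% of OMM2.3 and 4.35% of 92.1 members passed. Windows of 1 Mb gave density ratios of 1.39 and 0.736, windows of 2 Mb 0.789 in 92.1, and windows of 5 Mb 1.24 and 0.884. The share past q was 9.03% and 3.01% with 1 Mb and 3.37% and 0.965% with 5 Mb, and the shared share was 4.72% and 3.78% with 1 Mb and 4.05% and 2.36% with 5 Mb, where the OMM2.3 interval of 3.54 to 4.64 held the 3.58% of the rest. Windows of 1 Mb also gave a median fold enrichment of 2.72 in OMM2.3, IgG backgrounds of 2.02 and 1.62 fragments, repeated shares of 96.0% and 92.8% and satellite shares of 47.3% and 43.9%, against 34.4% and 26.5% with 3 Mb.

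With 3 to 10 Mb from the point as the comparison the OMM2.3 density ratio was 1.20. The median of chromosomes was 1.54 and 0.885, gaps counted as length gave 1.26 and 0.809, and leaving out the acrocentric chromosomes gave 0.821 in 92.1. In unrepeated sequence alone (761 and 1695 members, whatever their satellite class) the density ratio was 1.08 and 0.870. The share past q was 0.920% (0.446 to 1.89) and 0.354% (0.162 to 0.770), still above the 0.0191% and 0.0717% of unrepeated peaks elsewhere. With satellite-like members left out it was 0.295% in OMM2.3, 2 of 678 members, and 0.258% in 92.1, 4 of 1553. Outside satellite-like sequence the excess therefore rests on very few members. In unrepeated sequence of any satellite class the median fold enrichment was 2.60 in OMM2.3, the IgG background 1.21 and 0.921, and GC 44.5% and 40.6%. There the shared share fell to 3.02% and 1.30%, below that of the rest of the autosomes in both lines.

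An overlap of 50% of each peak gave shared shares of 2.45% and 1.59%, and summits within 200 bp gave 3.57% and 2.32%. At 80% of 32-base words the repeated share was 67.3% and 56.3%. Satellite shares were 15.02% and 10.5% at a self-identity of 0.6 with 15 pentamers and 55.6% and 44.7% at 0.4, since a wider limit admits more sequence. GC over 250 bases on either side was 41.4% in OMM2.3. Protein-coding genes alone gave gene shares of 9.57% and 14.7%, and genes extended by 3 kb 24.0% and 32.2%. Leaving out chromosome 19 in OMM2.3 and 1 in 92.1, which held the most members past q, left shares of 4.51% and 1.34%.

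No paired analysis was possible because every group was a single library. With medians of 8 and 5 fragments a member, single members at the authors' p of 0.05 cannot be ranked finely, and in repeated sequence the assembly position of a member stands for its copies.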
